A study of Coturnix japonica with 15 samples.

Results

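Ethinylestradiol, a synthetic oestrogen, was given to Japanese quail eggs at 3.33 or 33.3 µg per g of egg, and the comparison described here sets the 5 liver libraries of the higher dose against the 5 of the lower, 10 of the 15 libraries of the series. They were taken by their dose labels, and the 5 remaining libraries, from eggs given the DMSO solvent alone, served as the reference level. All groups had 10 µl injected into the egg's air cell, were incubated at 37 °C and a humidity of 60%, and gave RNA from the left liver lobe of Coturnix japonica embryos on embryonic day 9. The strain and sex of the embryos are not given in the labels, nor whether each library is a separate embryo, so the p-values measure the spread between these libraries. The labels set the groups apart by the injected solution alone, and the solvent was DMSO.

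Oestrogens act in the liver of egg-laying vertebrates through nuclear receptors, chiefly the receptor encoded by ESR1, which bind DNA and raise transcription of genes for yolk and egg coat proteins. The liver secretes these proteins into the blood, from which the growing egg cell takes them up. Embryonic and male livers do not normally make them in quantity but can be brought to do so by added oestrogen. A response is said to saturate when a further step in dose adds nothing to it, and the 10-fold step between these groups bears on that question.

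Total estimated counts per library ran from 22075439 to 37046558 in the lower dose group and from 21715273 to 54591426 in the higher. Defining transcripts of hepatocytes were abundant in all 15 libraries, the 9 tested markers together reaching 67106 to 162788 CPM (counts per 1000000, on totals scaled for composition). Albumin took 9.71% to 13.3% of the counts in 13 libraries but 4.85% in 3.33 µg/g replicate 4 and 5.88% in 33.3 µg/g replicate 1. The mean level of chromosome Z genes also stood apart, at 3.31 to 3.37 log2 CPM in solvent replicate 3, 3.33 µg/g replicates 3 and 4 and 33.3 µg/g replicate 1, against 3.64 to 3.78 in the other 11 libraries. Of 13 library measures compared between the doses (totals, albumin share, chromosome Z level and 10 sets of cell type markers), none passed a two-sided exact permutation test after Benjamini-Hochberg adjustment, the smallest p being 0.0714 (adjusted p = 0.793) for macrophage and leukocyte markers. With 5 against 5 libraries the smallest p this permutation test can give is 0.00794. A measure that alone separated the doses fully could therefore not pass after adjustment over 13, and the test does not show that the groups match.

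No gene passed between the doses. Of 14508 genes tested with edgeR's quasi-likelihood test, 0 (0.0%) had an adjusted p under 0.05, 805 (5.55%) had an unadjusted p under 0.05, and 2 (0.0138%) had an adjusted p under 0.1. On the same counts DESeq2 called 19, 12 of them higher at 33.3 µg/g, and limma-voom called 0. The numbers higher and lower at 33.3 µg/g were near even, 7159 (49.3%) against 7349, and the median log2 difference was 0.00. TMM scaling centres the bulk of genes near no difference, so this balance follows largely from the scaling. The 95% interval of the difference lay within a 2-fold change either way for 11651 genes (80.3%), and the median interval reached 0.35 on the log2 scale to each side. Against solvent the same fit called 200 genes (1.38%) at 3.33 µg/g, 155 (1.07%) of them higher, and 157 (1.08%) at 33.3 µg/g, 136 (0.937%) of them higher, comparisons that share their solvent libraries.

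To ask how far the dose step moved genes that respond to the drug, responsive genes were taken from the mean of both doses against solvent, a contrast orthogonal to the dose difference. It called 285 genes (1.96%), of which 201 (1.39%) rose and 84 (0.579%) fell. The count was 151 without solvent replicate 1, 184 without replicate 2 and 147 without replicate 4, and 117 of the 285 genes, 102 of them rising, passed in all 15 fits that left out 1 library. Both contrasts share 1 estimate of each gene's spread, so shares of small p-values among these genes are not independent of how they were chosen.

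Among the 201 rising genes the higher dose added nothing on balance. The median difference, 33.3 minus 3.33 µg/g, was −0.02 on the log2 scale, with 93 genes higher and 108 lower. With library totals in place of TMM scaling 70 were higher and 131 lower, with a median of −0.09. Their median rise over solvent was 1.2 at 3.33 µg/g and 1.06 at 33.3 µg/g. The quartiles of the differences were −0.22 and 0.14, and the whole range ran from −2.35 to 1.46. The interval lay within a 2-fold difference for 130 of the 201 genes (64.7%), against 80.3% of all tested genes. It excluded 0 for 23 genes (11.4%), 7 higher and 16 lower at 33.3 µg/g, against 5.55% of all tested genes, 2.69% higher and 2.86% lower. Libraries of the doses did not overlap for 4 genes (1.99%), against 0.655% of all tested genes.

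The precision fell with the size of the rise among these genes. A small rise could pass against solvent only with a small spread, so this follows in part from the choice of genes. Of 93 genes that rose by less than 1 on the log2 scale, 91 had an interval within a 2-fold difference. Of the 42 genes that rose by 3 or more, 2 did, and their median interval reached 1.29 to each side, so a 2-fold dose difference was mostly not detectable in the genes that rose most. In that group 26 genes were higher and 16 lower at 33.3 µg/g, with a median difference of 0.14.

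**Figure D1:**
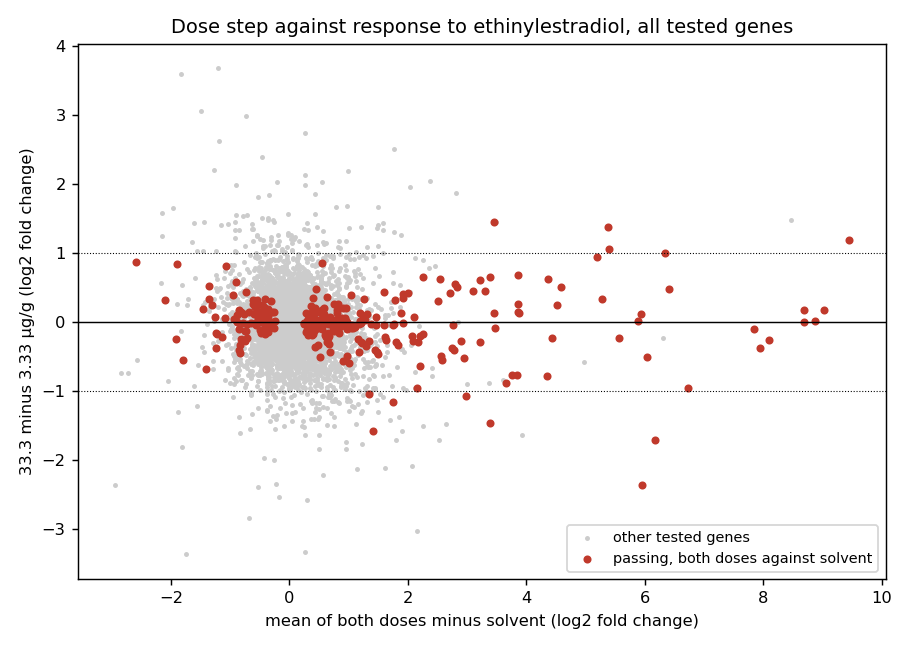
Log2 fold change between the doses (y axis) against that of the mean of both doses over solvent (x axis) for each tested gene. Red points are the 285 genes passing against solvent, grey points the other tested genes, and dotted lines mark a 2-fold difference. Red points lie on both sides of 0 at each size of rise, with a median of −0.02 among rising and 0.07 among falling genes.

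Of the list of yolk and egg proteins made by the liver, 6 of 16 genes were tested, and 4 of these (APOB, RBP4, TCN2 and ZP1) rose in the mean of both doses against solvent. The vitellogenin symbols of the list were matched by none of the named genes, so vitellogenins are not analysed here by name. APOB, which builds the lipoprotein that carries lipid to the yolk, was at 21546, 30465, 25416, 18691 and 18047 CPM in 3.33 µg/g replicates 1 to 5. At 33.3 µg/g it was at 16794, 21615, 19769, 18196 and 22115 CPM, and with solvent at 6918 ± 752 CPM (SD, n = 5). The dose groups overlapped and each dosed library was above every solvent library. The dose difference in APOB was −0.21 (95% interval −0.53 to 0.11, adjusted p = 0.947), an interval that excludes a 2-fold change either way.

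RBP4, the plasma carrier of retinol, was at 1554 to 2140 CPM at 3.33 µg/g and 1423 to 2235 CPM at 33.3 µg/g, with a difference of −0.08 (−0.35 to 0.19). TCN2, a carrier of vitamin B12, was at 272, 455, 471, 364 and 276 CPM at the lower dose and 457, 436, 205, 166 and 474 CPM at the higher, against 22.3 to 52.5 CPM with solvent. Replicates 3 and 4 at 33.3 µg/g were the lowest of the 10 dosed libraries in TCN2, and the dose difference was −0.08 (−0.74 to 0.57). ZP1, an egg coat protein, was at 158, 139, 365, 150 and 134 CPM at 3.33 µg/g and 140, 130, 90.2, 90.7 and 109 CPM at 33.3 µg/g. Replicate 3 at the lower dose stood apart, and the ZP1 difference of −0.76 (−2.29 to 0.78) was −0.38 without it. Solvent replicate 3, with 45.1 CPM of ZP1, was also high, the rest of its group lying from 1.45 to 3.06 CPM. The ZP1 interval between the doses uses a spread shared with the solvent libraries, whose SD of log2 CPM was 1.82. The SDs were 0.60 and 0.29 within the lower and higher dose. In ZP1, 4 of the 5 libraries at 33.3 µg/g lay below every library at 3.33 µg/g, and replicate 1 overlapped them. The ZP1 rise over solvent did not pass without solvent replicate 1, 4 or 5 (adjusted p up to 0.058), DESeq2 gave ZP1 no p, and its log2 size of 3.75 became 5.91 without solvent replicate 3.

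MTTP, which loads lipid onto APOB, averaged 138 ± 18.3 CPM at 3.33 µg/g, 172 ± 34.3 CPM at 33.3 µg/g and 188 ± 32.7 CPM with solvent. Its dose difference was 0.32 (0.01 to 0.63, adjusted p = 0.877). The transferrin gene TF, at 11291 to 30337 CPM at the lower and 20642 to 32593 CPM at the higher dose, differed by 0.37 (−0.13 to 0.86). ESR1 was at 13.2 to 22.1 CPM at 3.33 µg/g and 12.7 to 21.0 CPM at 33.3 µg/g, a difference of −0.11 (−0.65 to 0.43).

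A pair of protein-coding loci without a gene name reached levels near that of APOB and varied widely between dosed libraries. LOC107317565, on chromosome 8, was at 9097, 20746, 23498, 14765 and 7392 CPM at 3.33 µg/g and 16935, 17760, 5861, 2341 and 15521 CPM at 33.3 µg/g. LOC107319873, on chromosome 1, was at 7222, 14258, 20677, 15989 and 8094 CPM and at 15520, 12096, 5927, 3685 and 18055 CPM. In both loci replicates 1 and 5 were the lowest at 3.33 µg/g and replicates 3 and 4 the lowest at 33.3 µg/g. The dose differences were −0.37 (−2.56 to 1.82) and −0.26 (−2.54 to 2.02), too wide to exclude a 4-fold lower level at the higher dose. The second interval did not exclude a 4-fold higher level either. Both intervals use a spread shared with the solvent libraries, whose SD of log2 CPM was 2.85 and 3.28. Within the lower and higher dose the SDs were 0.73 and 1.28 for LOC107317565 and 0.65 and 0.98 for LOC107319873. Solvent replicate 3 had 238 and 195 CPM of these loci, and the other solvent libraries 0.347 to 16.3 CPM. Whether these loci share sequence with other genes was not tested.

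**Figure D2:**
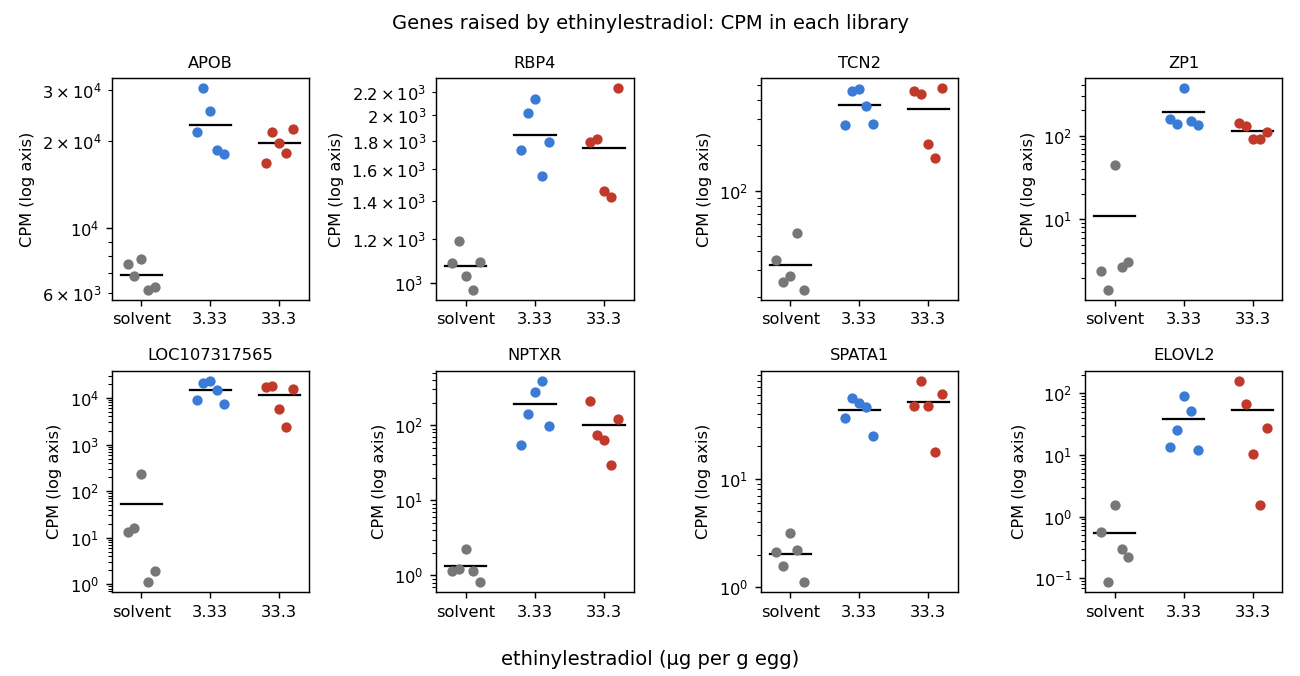
CPM on a log axis in each of the 5 libraries (points) of the solvent, 3.33 and 33.3 µg/g groups for 8 genes, with the group mean as a black line. The dosed groups overlap in each panel, and the spread is narrow in APOB and RBP4 and wide in LOC107317565, NPTXR and ELOVL2.

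Among the rising genes, dosed libraries differed most in those with large rises. The 42 genes that rose by 3 or more on the log2 scale had a median SD of log2 CPM of 0.76 at 3.33 µg/g and 0.92 at 33.3 µg/g, against 0.18 and 0.22 in the 93 that rose by less than 1. Solvent libraries also differed more in the 42 genes, with a median SD of 0.34 against 0.16. A small rise could pass against solvent only with a small spread, so these contrasts follow in part from the choice of genes. Over all tested genes the median SD was 0.24 at 3.33 µg/g and 0.22 at 33.3 µg/g. NPTXR, a neuronal pentraxin receptor, was at 53.7, 142, 275, 391 and 97.7 CPM at 3.33 µg/g and at 211, 73.4, 62.9, 29.5 and 121 CPM at 33.3 µg/g, with 0.822 to 2.28 CPM in solvent. The highest library was 7.29 times the lowest at 3.33 µg/g and 7.13 times at 33.3 µg/g, and the difference was −0.95 (−2.05 to 0.15). CORIN, a membrane protease, averaged 27.1 ± 15.9 and 27.5 ± 13.2 CPM at the lower and higher dose, with a difference of 0.02 (−0.98 to 1.02). SPATA1 averaged 42.8 ± 12.2 and 50.8 ± 23 CPM (0.25, −0.44 to 0.93). Means at the doses were closest in CORIN among these genes, yet its interval still reached a 2-fold change.

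ELOVL2, an elongase of polyunsaturated fatty acids, was at 13.3, 25, 88.4, 51.1 and 12 CPM at the lower dose. At the higher dose it was at 159, 65.5, 10.4, 1.52 and 27.2 CPM, a range of 105 times, and replicate 4 matched the highest solvent library, at 1.52 CPM. FAXDC2, of the fatty acid hydroxylase family, was at 10.9, 2.78, 16, 3.49 and 18.2 CPM and at 60, 39.7, 14.6, 1.83 and 17.4 CPM, a range of 6.53 and 32.7 times. Their dose differences were 0.48 (−1.30 to 2.26) and 1.38 (−0.16 to 2.92). The mean SD of log2 CPM within a dose was among the 4 largest of the named responsive genes for both, along with CKMT2 and the potassium channel gene KCNQ1. With limma-voom the rises of ELOVL2, FAXDC2, CKMT2, KCNQ1 and HHIPL2 over solvent did not pass.

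CKMT2, a mitochondrial creatine kinase, was at 8, 25.6, 5.93, 0.644 and 3.63 CPM at 3.33 µg/g and 1.39, 3.36, 1.43, 1.41 and 6.02 CPM at 33.3 µg/g (difference −1.70, −3.22 to −0.19, adjusted p = 0.877). Leaving out 1 library at a time moved the CKMT2 difference between −2.20 and −0.75, the latter without 3.33 µg/g replicate 2. KCNQ1 was high in replicate 4 of both doses, with 48.5 CPM at the lower dose, where the rest had 4.25 to 26.2 CPM, and 47.8 CPM at the higher, where the rest had 4.63 to 15.3 CPM. The rise of KCNQ1 ended when solvent replicate 1, 2 or 4 was left out. AANAT, an enzyme of melatonin synthesis, was at 0.376, 0.428, 2.92, 4.74 and 0.17 CPM at the lower and 0.693, 0.598, 0.0333, 0.106 and 0.149 CPM at the higher dose. The AANAT difference was −2.35 (−4.21 to −0.49, adjusted p = 0.859), −1.51 without 3.33 µg/g replicate 4 and −1.13 with the chromosome Z level as a covariate. The rise of AANAT over solvent ended without any 1 of 9 libraries, among them each solvent library. BEST3 (0.18, −1.56 to 1.91), GAREM2 (0.34, −0.74 to 1.43) and HHIPL2 (−0.77, −2.10 to 0.56) had dosed groups that overlapped.

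**Figure D3:**
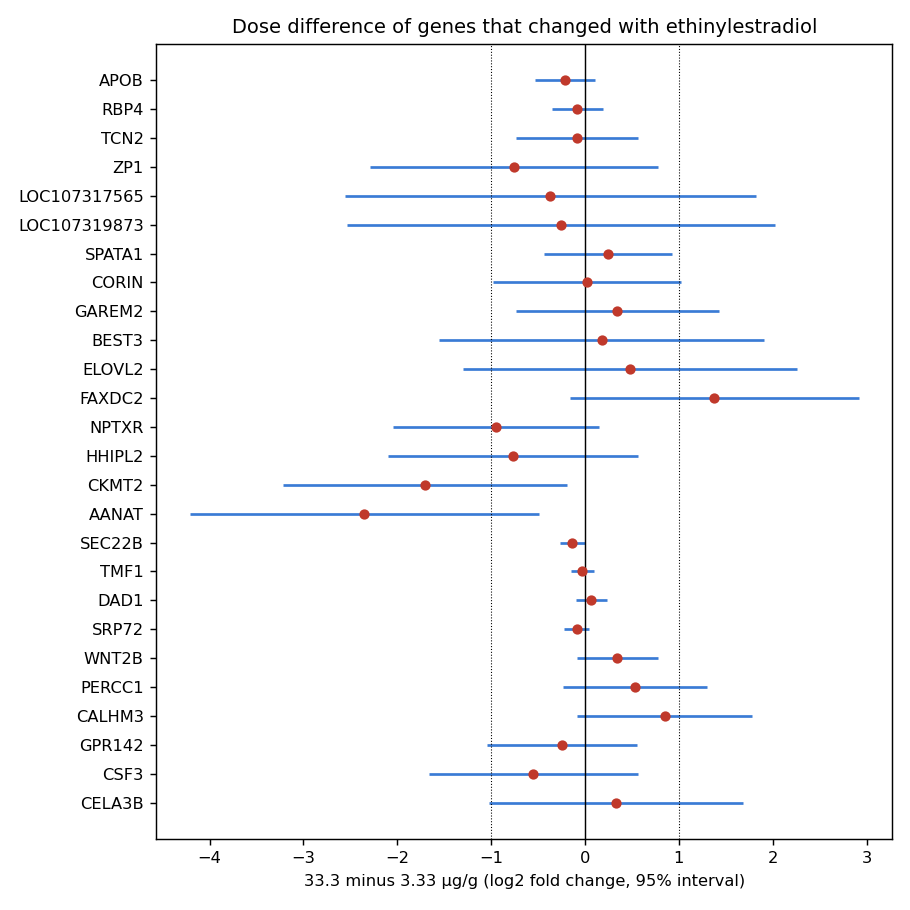
Log2 fold change of 33.3 against 3.33 µg/g (red points) with its 95% interval (blue lines) for 26 genes that passed against solvent, with dotted lines at a 2-fold difference. SEC22B, TMF1, DAD1, SRP72, RBP4 and APOB have the narrowest intervals, each within a 2-fold difference, and those of AANAT and CKMT2 lie below 0.

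The 4 named responsive genes with the least spread within a dose were SRP72, DAD1, SEC22B and TMF1. SRP72, a subunit of the particle that brings nascent proteins to the endoplasmic reticulum, averaged 94.9 ± 5.46 CPM at 3.33 µg/g and 89.1 ± 3.7 CPM at 33.3 µg/g, against 74.3 ± 2.42 CPM with solvent. Its dose difference was −0.09 (−0.22 to 0.04). DAD1, a subunit of the enzyme that attaches sugar chains to proteins, averaged 114 ± 8.37 and 119 ± 2.57 CPM (0.06, −0.10 to 0.23). SEC22B, of transport between the reticulum and the Golgi, averaged 95.3 ± 4.56 and 86.8 ± 2.55 CPM (−0.14, −0.27 to 0.00). All 5 of its libraries at 33.3 µg/g (83.8 to 89.8 CPM) lay below every library at 3.33 µg/g (90.8 to 101 CPM). Such a lack of overlap between the doses was seen in 1.99% of rising genes and 0.655% of all tested genes. The Golgi protein gene TMF1 averaged 38.2 ± 1.79 and 37.5 ± 1.52 CPM (−0.03, −0.15 to 0.10). These rises were small, with log2 sizes of 0.25 to 0.34, and ended when library totals replaced TMM scaling. Leaving out solvent replicate 1 ended the calls of SEC22B, TMF1 and DAD1, as did replicate 2 for SEC22B and DAD1, replicate 3 for DAD1 and replicate 4 for TMF1.

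Among genes lowered by the drug, the fall was no larger at the higher dose on balance. Of the 84 falling genes 51 were higher at 33.3 than at 3.33 µg/g, with a median difference of 0.07. With library totals in place of TMM scaling 44 were higher and 40 lower, with a median of 0.02. The interval lay within a 2-fold difference for 74 (88.1%). It excluded 0 for 8 of the 84 (9.52%), each higher at 33.3 µg/g, against 5.55% of all tested genes in either direction and 2.69% higher. Median falls against solvent were −0.66 at 3.33 µg/g and −0.55 at 33.3 µg/g. No test was made over the set.

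WNT2B, a secreted Wnt ligand, was at 4.97, 5.42, 2.49, 3.56 and 3.63 CPM at the lower dose and 4.31, 5.25, 3.93, 6.56 and 5.57 CPM at the higher, against 9.45 to 13.9 CPM with solvent (dose difference 0.34, −0.09 to 0.78). The calcium homeostasis channel gene CALHM3 averaged 6.16 ± 3.28 and 11.1 ± 5.5 CPM (0.85, −0.08 to 1.78) against 30.8 ± 14.4 CPM with solvent. PERCC1 averaged 7.71 ± 3.45 and 11.2 ± 5.48 CPM (0.53, −0.23 to 1.30), and the receptor gene GPR142 0.575 ± 0.221 and 0.483 ± 0.143 CPM (−0.24, −1.04 to 0.55). CSF3, a growth factor of granulocytes, and the pancreatic elastase gene CELA3B owed much of their solvent means to replicate 2, at 5.4 and 13.7 CPM. Without that library their log2 falls were −1.11 in place of −1.79 and −1.15 in place of −2.10, and neither passed. The CSF3 call also ended when any 1 of 8 other libraries was left out, and the CELA3B call with any 1 of 11. The PERCC1 call ended with solvent replicate 1, 3 or 4 left out, or with replicate 5 of the higher dose. The groups of WNT2B and GPR142 overlapped between the doses, and these calls passed in each fit that left out 1 library.

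The strength of the response varied between libraries of 1 dose by more than it differed between doses. As a score, the median over the 201 rising genes of the log2 difference from the solvent mean was taken in each library. It was 0.74, 1.03, 1.16, 1.02 and 0.84 in replicates 1 to 5 at 3.33 µg/g, a mean of 0.96 ± 0.17 (SD, n = 5). At 33.3 µg/g it was 1.02, 0.95, 0.82, 0.68 and 1.06, a mean of 0.91 ± 0.16, and the solvent libraries lay between −0.05 and 0.03. The score over the 84 falling genes was −0.47, −0.61, −0.67, −0.83 and −0.51 at the lower and −0.68, −0.60, −0.53, −0.41 and −0.52 at the higher dose. Replicate 1 at 3.33 µg/g and replicate 4 at 33.3 µg/g were thus nearest to solvent within their doses in both scores. The genes were chosen against these solvent libraries, so the distance from solvent is a description.

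The libraries kept their places across many genes. Replicate 4 at 33.3 µg/g had the lowest value of its dose in 47.8% of the rising genes, against 19.6% of all tested genes. Replicates 1 and 5 at 3.33 µg/g had the lowest in 29.9% and 33.8%, against 16.8% and 20.5% of all tested genes. Replicate 5 at 33.3 µg/g had the lowest in 5.47%, against 19.7% of all tested genes. In each dosed library 178 (33.3 µg/g replicate 4) to 199 (3.33 µg/g replicate 3) of the 201 rising genes were above every solvent library. The 201 genes were chosen for their rise in these same libraries, so these counts are a description. The share over all tested genes was not counted. The rising scores of the 3 dosed libraries with a low chromosome Z level were 1.16, 1.02 and 1.02, and the part of that level in the score was not tested.

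**Figure D4:**
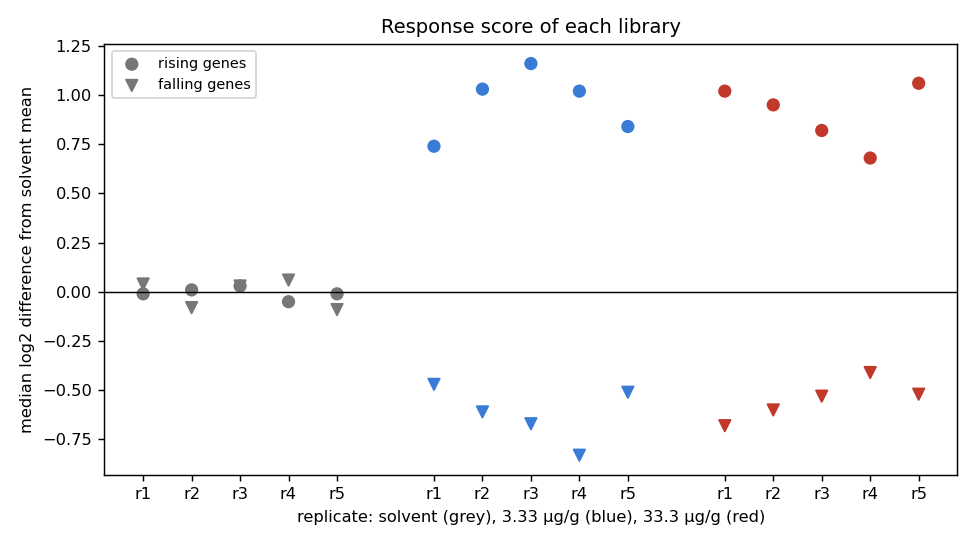
Response score of each library: the median log2 difference from the solvent mean over the 201 rising genes (circles) and the 84 falling genes (triangles), for solvent (grey), 3.33 µg/g (blue) and 33.3 µg/g (red). Scores of rising genes run from 0.74 to 1.16 at the lower and 0.68 to 1.06 at the higher dose.

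Rising genes varied more between dosed libraries than between solvent libraries. Their median SD of log2 CPM was 0.32 at 3.33 µg/g, 0.30 at 33.3 µg/g and 0.19 with solvent, against 0.24, 0.22 and 0.21 over all tested genes. The SD exceeded that of the solvent group in 137 of the 201 genes at the lower dose (68.2%) and 143 at the higher (71.1%), against 58.6% and 53.7% of all tested genes. Where the solvent mean was at least 10 CPM, so that low counts weigh less, the median SD of 106 rising genes was 0.21, 0.23 and 0.17, against 0.19, 0.17 and 0.17 over all tested genes at that level. In these the SD exceeded that of the solvent group in 61.3% of rising genes at 3.33 µg/g and 60.4% at 33.3 µg/g, against 60.5% and 54.2% of all. At that level the lower dose thus showed little excess by this share, and a small one by the median SD (0.21 against 0.19). The common biological coefficient of variation over all genes was 0.282 at 3.33 µg/g, 0.261 at 33.3 µg/g and 0.243 with solvent. Without 3.33 µg/g replicate 4 it was 0.259 at that dose. Without 33.3 µg/g replicate 1 it was 0.239 at that dose, below the full solvent group. Without both of these libraries of low albumin share, 3.33 µg/g stayed above 33.3 µg/g. Solvent was at 0.227 without its replicate 3, so the order of 33.3 µg/g and solvent depended on the libraries left out.

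The 10 genes with the smallest p between the doses, each with libraries that did not overlap between doses, were 5 higher and 5 lower at 33.3 µg/g. None passed with edgeR, all 10 were among the 19 genes that DESeq2 called, and this lack of overlap was seen in 95 genes (0.655%) of all tested. HARBI1, which encodes a nuclease derived from a transposase, was at 38.5, 25.7, 24.6, 23.2 and 28.3 CPM at 33.3 µg/g. It was at 16.7, 16.8, 13.8, 16.8 and 12.8 CPM at 3.33 µg/g and 13.4 to 15.4 CPM with solvent. The higher dose stood above both other groups, and those overlapped (difference 0.87, SE 0.13, adjusted p = 0.0912). In other edgeR fits the adjusted p of HARBI1 depended on the setting. It was 0.698 with the 2 dose groups only, 0.448 with library totals, 0.257 with a replicate block and 0.0733 with the chromosome Z covariate. In the reference gene table HARBI1 lies inside the span of ATG13, a gene of autophagy, on chromosome 5. ATG13 averaged 67.5 ± 10.6 CPM at the lower and 95 ± 9.92 CPM at the higher dose (0.49, SE 0.11, adjusted p = 0.479 with edgeR). DESeq2 called ATG13 (adjusted p = 0.0274), and all 5 of its libraries at 33.3 µg/g lay above every other library. Whether the counting used strand is not given in the sources used here, so reads of these overlapping genes may not be told apart.

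The same step at the higher dose was seen in 4 other genes of the 10, each with all 5 libraries at 33.3 µg/g above every other library. The share of all tested genes with this pattern was not counted. All libraries at 33.3 µg/g lay above every library at 3.33 µg/g in 45 genes (0.31%) of all tested. The 10 genes were chosen by their p between the doses, so the lack of overlap between doses follows in part from the choice. CGN, a tight junction protein, had 65.8 to 81.5 CPM in the higher dose group, 41.9 to 58.8 in the lower and 48.9 to 63.5 with solvent (0.55, SE 0.10, adjusted p = 0.242). MFN1, which fuses mitochondria, averaged 81 ± 9.99, 57.1 ± 4.06 and 57 ± 6.84 CPM in the same order (0.50, SE 0.10, adjusted p = 0.314), and the zinc finger gene ZNF395 51.4 ± 11.6, 31 ± 4.08 and 28.9 ± 3.79 CPM (0.73, SE 0.14, adjusted p = 0.258). LOC107315067, a long noncoding RNA, was at 11.6 to 15.8, 7.47 to 10.4 and 9.19 to 10.1 CPM (0.66, SE 0.11, adjusted p = 0.107). In the gene table it lies on chromosome 5 between TTC6, at −0.04 (−0.90 to 0.83), and FOXA1, a factor that opens chromatin for nuclear receptors, at 40.6 ± 3.96 and 32.4 ± 3.67 CPM at the higher and lower dose (0.33, SE 0.10, adjusted p = 0.828).

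Other genes of the 10 were high at the lower dose. TMEM192, a lysosomal membrane protein, was at 14.3, 18.3, 15.4, 19.4 and 13.5 CPM at 3.33 µg/g and 9.85, 10, 9.43, 9.45 and 10.7 CPM at 33.3 µg/g, with 9.46 to 11.9 CPM in solvent (−0.71, SE 0.11, adjusted p = 0.0912). Its higher-dose libraries overlapped the solvent libraries, and 2 of them lay below every solvent library. The edgeR adjusted p of TMEM192 was 0.698 with the 2 dose groups only, 0.448 with library totals and 0.567 with a replicate block. LOC107315705, another long noncoding RNA, was also highest at the lower dose, at low levels (1.85 ± 0.467, 0.618 ± 0.22 and 0.398 ± 0.0969 CPM at the lower dose, the higher dose and solvent). It passed against solvent, and that call ended without solvent replicate 4. C1QB, a chain of complement C1q that macrophages make, had 11.6 to 21.9 CPM in the lower dose group, 7.07 to 9.79 in the higher and 5.98 to 9.75 with solvent (−0.83, SE 0.18, adjusted p = 0.438). In these 3 genes all libraries at 3.33 µg/g were above every other library, a pattern whose share of all tested genes was not counted either. All libraries at 33.3 µg/g lay below every library at 3.33 µg/g in 50 genes (0.345%) of all tested. These genes too were chosen by their p between the doses. LOC107318160 (−0.59) and the kinase-like gene CAMKV (−1.36) were also lower at 33.3 µg/g.

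**Figure D5:**
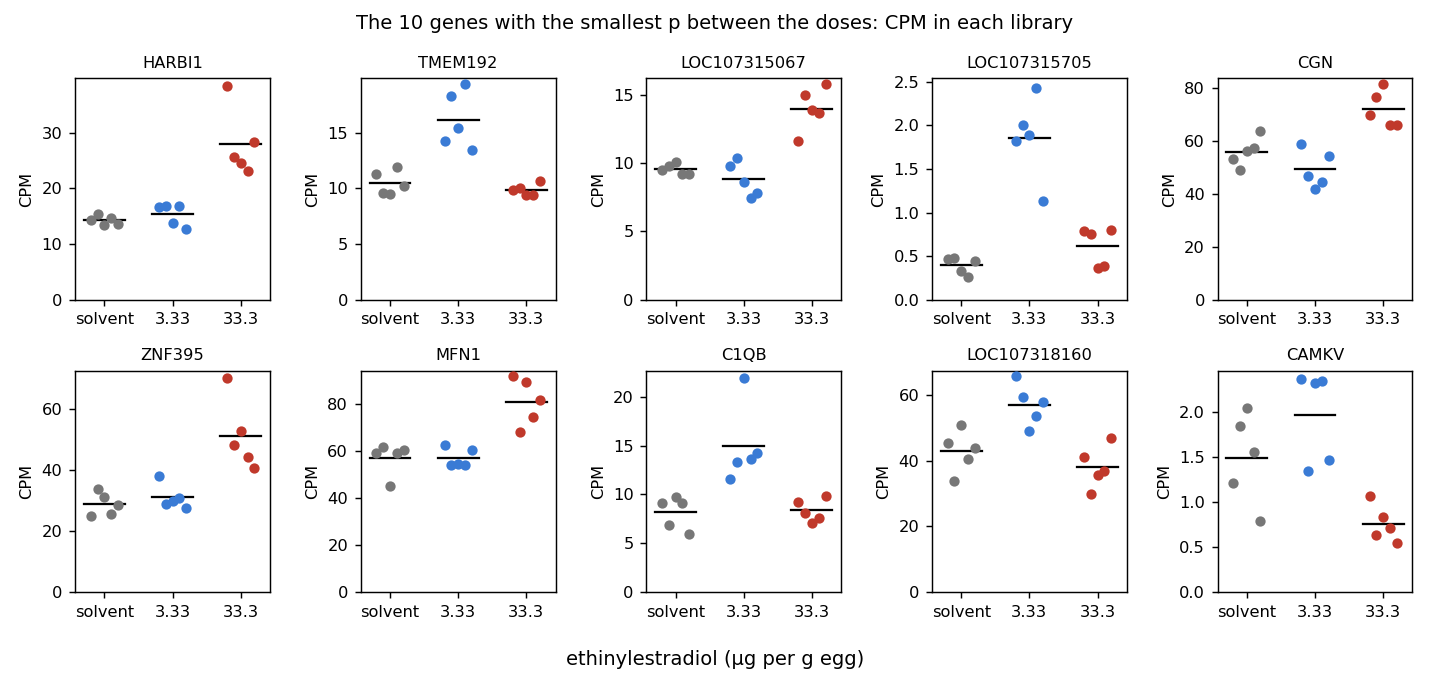
CPM in each library (points) and group means (black lines) for the 10 genes with the smallest p between the doses, in the solvent, 3.33 and 33.3 µg/g groups. The dosed groups do not overlap in any panel. In HARBI1 the 33.3 µg/g libraries are the high ones, and in TMEM192 the 3.33 µg/g libraries are.

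C1QB stood in a list of macrophage and leukocyte markers whose 10 tested members were all lower at 33.3 than at 3.33 µg/g, with a median difference of −0.66 against 0.00 over all tested genes. None of the 10 passed, and 5 had an unadjusted p under 0.05, against 2.86% of all genes in that direction. Their summed level was 106, 88.7, 216, 114 and 126 CPM at the lower dose, 94.8, 101, 67.6, 65.3 and 90.4 CPM at the higher. With solvent the sums were 84.9, 58.8, 89.8, 83.7 and 100 CPM, so they overlapped those of both doses. Against solvent the median of the list was 0.77 at the lower and 0.01 at the higher dose, so the lower dose was the group further from solvent. Replicate 3 at 3.33 µg/g stood apart, and without it the median difference between the doses was −0.36. The receptor gene CSF1R, at 31.4 CPM in that library against 10.4 to 14.8 in the others of its dose, differed by −0.82 (SE 0.24, adjusted p = 0.828) and by −0.48 without it. C1QA (−0.68), MPEG1 (−0.76), LCP1 (−0.51), PTPRC (−0.57), SPI1 (−0.45), CSF3R (−0.63) and CD74 (−1.26) had the same sign, and the macrophage receptor gene MARCO was at −0.03. Without 3.33 µg/g replicate 3 the differences were −0.24 in C1QA, −0.37 in MPEG1, −0.26 in SPI1, −0.26 in CSF3R and −0.74 in CD74. CD74 was at −2.0 without 33.3 µg/g replicate 1. In bulk liver, a difference in the number of cells of a type and a difference in RNA per cell cannot be told apart.

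Among other cell type lists, 13 of 14 endothelial, 7 of 7 erythroid and 6 of 6 cholangiocyte markers were lower at 33.3 µg/g, with medians of −0.14, −0.12 and −0.29. STAB1, a scavenger receptor of liver endothelium, averaged 126 ± 29.7 CPM at the lower and 90.2 ± 7.38 CPM at the higher dose (−0.48, SE 0.13, adjusted p = 0.823). SOX9, a bile duct marker, was at 42.2 CPM in 3.33 µg/g replicate 4 and 11.2 CPM in 33.3 µg/g replicate 1, the libraries of low albumin share. It was also at 10.2 CPM in 3.33 µg/g replicate 3, with an albumin share of 9.71%. Each of these libraries had a low chromosome Z level. The SOX9 difference of −1.30 became 0.02 without 3.33 µg/g replicate 4. Stellate and fibroblast markers had a median of −0.01, hepatocyte markers 0.24, neural −0.19, pancreas and gut −0.37, heart, lung and muscle −0.05, and gonad, kidney and adrenal 0.61 with 2 genes tested. None of these genes passed between the doses, and the part of cell makeup in the dose differences was not tested.

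In the pathway lists none of the tested genes passed between the doses either. Cholesterol synthesis and uptake had 17 of 20 members higher at 33.3 µg/g (median 0.17), 4 of them at an unadjusted p under 0.05 against 2.69% of all genes in that direction. These were MVK and MVD of the mevalonate steps (0.23 and 0.25) and NSDHL and SC5D of late sterol synthesis (0.50 and 0.34). Against solvent MVK was at −0.26 at the lower and −0.03 at the higher dose, and SC5D at −0.15 and 0.19. In the same order MVD was at 0.07 and 0.32, and NSDHL at 0.11 and 0.61. The list's median against solvent was 0.38 at the higher and 0.24 at the lower dose. With library totals in place of TMM scaling, 15 of its members were higher and 5 lower at 33.3 µg/g, with a median of 0.10. Glucose and glycogen genes had 12 of 16 members higher (median 0.17), with 5 at an unadjusted p under 0.05. Among these SLC2A2, the liver's glucose transporter, averaged 283 ± 41.1 CPM at 3.33 µg/g, 408 ± 91.5 CPM at 33.3 µg/g and 445 ± 73.6 CPM with solvent (0.53, SE 0.16, adjusted p = 0.833). The glycolytic ENO1 (0.30), the glycogen branching gene GBE1 (0.43) and PCK1 of glucose synthesis (2.04) were also among them, PCK1 at 0.342 ± 0.323 and 1.38 ± 1.73 CPM and with a difference of 1.03 without 33.3 µg/g replicate 1.

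Fatty acid oxidation had 15 of 21 members higher at 33.3 µg/g (median 0.12). The fall against solvent of CPT1A, which admits fatty acids to mitochondria, ended without solvent replicate 4. CPT1A averaged 481 ± 144 and 546 ± 106 CPM at the lower and higher dose (0.18, −0.23 to 0.60). In fatty acid and triglyceride synthesis (median −0.05, 7 of 18 higher) the phosphatidate phosphatase gene LPIN1 was at 4.74, 18.4, 22.7, 36.3 and 6.74 CPM at 3.33 µg/g and 5.82 to 10.9 CPM at 33.3 µg/g. The LPIN1 difference was −1.15 (SE 0.42, adjusted p = 0.843) and −0.71 without 3.33 µg/g replicate 4, and its rise against solvent ended without any 1 of 9 libraries. The elongase gene ELOVL6 differed by −0.62 (−1.12 to −0.12), and by −0.34 without 3.33 µg/g replicate 2.

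In the list of reticulum stress and the integrated stress response (median −0.03, 10 of 26 higher) PSAT1, of serine synthesis, was at 460, 1189, 1259, 350 and 426 CPM at 33.3 µg/g and 305 to 526 CPM at 3.33 µg/g. Replicates 2 and 3 at the higher dose were above all other dosed libraries (0.78, SE 0.34, adjusted p = 0.877). The stress response factor ATF4 was at −0.31 (−0.59 to −0.03). Hepatocyte plasma proteins had a median of 0.10, with AHSG, the fetuin gene, at 1.27 (0.06 to 2.47, adjusted p = 0.877) and the haem carrier HPX at −1.96 (−3.68 to −0.24, adjusted p = 0.877). HPX was at 46, 2.57, 7.52, 8.98 and 42.5 CPM at 3.33 µg/g and 1.7 to 11.2 CPM at 33.3 µg/g. With solvent HPX was at 4.68 to 35.2 CPM. In the list of acute phase and interferon response (median −0.07) the RNA sensor IFIH1 was at 0.68 (0.16 to 1.20). Among oestrogen receptors and coregulators (median 0.00, 8 of 16 higher) the corepressor NRIP1 was at −0.31 (−0.56 to −0.05). Medians were −0.06 for the 7 tested genes of oestrogen and xenobiotic metabolism and for bile acid synthesis and transport, 0.02 for oxidative stress and cell death, 0.00 for the cell cycle and −0.08 for yolk and egg proteins.

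Responsive genes whose interval between the doses excluded 0 went both ways. FABP7, a fatty acid binding protein, was at 60.6, 115, 91.5, 129 and 111 CPM at 3.33 µg/g and 52, 47.9, 90.8, 71.3 and 66.6 CPM at 33.3 µg/g, against 17.6 ± 2.54 CPM with solvent (−0.63, −1.05 to −0.20, adjusted p = 0.841). TMEM132C averaged 19.1 ± 4.48 and 9.85 ± 3.89 CPM (−0.95, −1.55 to −0.34, adjusted p = 0.828). TM6SF1 averaged 29.6 ± 23.1 and 10.8 ± 5.08 CPM (−1.46, −2.52 to −0.41, adjusted p = 0.841). HGF, a growth factor for hepatocytes, averaged 47 ± 6.85 and 33.1 ± 5.18 CPM against 27.6 ± 4.68 CPM with solvent (−0.50, −0.79 to −0.22, adjusted p = 0.823). CDIP1, at 0.48 (0.22 to 0.74), and LOC107308193, at 0.36 (0.14 to 0.57), were higher at 33.3 µg/g. TMLHE, which starts carnitine synthesis, fell with the drug and differed between the doses by 0.31 (0.13 to 0.48, adjusted p = 0.823). For HGF, CDIP1, LOC107308193, TMLHE and HARBI1, the call against solvent ended on leaving out any 1 of at least 4 libraries, with adjusted p up to 0.122. Those of FABP7, TMEM132C and TM6SF1 passed without any 1 library, TM6SF1 not with limma-voom.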

How the data were processed

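The submitters' processing notes name kallisto, a tool that estimates transcript counts, with no version, index or build. The deposited values were read as estimated counts (expected counts) per transcript, not normalized by the authors, because they are not whole and sum to a different total in each library. The 47418 transcript rows, named by NCBI gene ID, were summed to 20308 genes and rounded; 18900 IDs (93.1%) matched the RefSeq gene table of Coturnix japonica 2.1, whose build may differ, so it gave names, chromosomes and neighbours and no coordinates. edgeR 4.0.16 (R 4.3.3; filterByExpr, TMM, robust quasi-likelihood F-test) fitted all 15 libraries in 1 model of group, with two-sided p-values adjusted by Benjamini-Hochberg over 14508 genes and a threshold of 0.05. SE is the absolute log2 fold change over the square root of F, and 95% intervals use its t quantile. CPM are on TMM-scaled totals; log2 scores use CPM + 0.5. Reads are not independent molecules, so depth covers counting error only. The pipeline was tested on simulated data.

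Genes were named by rule: the 10 smallest p between doses (mean at least 1 CPM in whichever dose group was higher for that gene); among genes passing against solvent with a symbol, the 10 largest rises, 6 largest falls, and the 4 widest and 4 narrowest within-dose SDs; yolk genes, ESR1, ALB and the 2 unnamed loci; 2 per pathway list; and the 6 responsive genes of smallest p. Neighbours, further marker and list genes, FABP7, TMEM132C and TM6SF1 were chosen after their values were seen. The groups, 13 pathway lists and 10 marker lists were chosen with earlier results of these data known. Alternatives were RLE factors, library totals, 2 low-count filters, DESeq2 1.42.0, limma-voom (limma 3.58.1), a replicate block, a fit to the 2 dose groups, erythroid and chromosome Z covariates, a threshold of 0.1 and left-out libraries. Replicate numbers did not pair the libraries, and no 2 replicates were copies (over 30 pairs, chi-square was at least 27 times its degrees of freedom). A result that the rule covers is not reported here.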

Additional observations from a re-analysis of the deposited data

Results flagged for a closer look

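In a group of 5 libraries, a highest or lowest value was marked as standing apart where its gap to the nearest other value exceeded 0.710 of the group's range (Dixon's test). For independent, normally distributed values chance gives about 5% of groups, and 30 marks were found in 267 groups examined. Some of these genes were named for a wide spread or after their values were seen, so no excess over chance is read from this count.

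Solvent replicate 3 stood apart with 45.1 CPM of ZP1, 238 CPM of LOC107317565, 195 CPM of LOC107319873, 2.28 CPM of NPTXR and, as the lowest, 44.9 CPM of MFN1. It was also marked at 0.0475 CPM of AANAT, near the floor, where any count is marked because the other solvent libraries were at 0. Its chromosome Z level of 3.36 was also the lowest of its group. In the 3.33 µg/g group, replicate 3 was the highest for ZP1 (365 CPM), C1QB (21.9 CPM), C1QA (25.2 CPM), CSF1R (31.4 CPM), MPEG1 (38.0 CPM) and CSF3R (3.44 CPM), the last 5 being macrophage and leukocyte markers.

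Replicate 4 at 3.33 µg/g stood apart with an albumin share of 4.85%, 42.2 CPM of SOX9 and 41.3 CPM of TMF1. Replicate 1 at 33.3 µg/g was the highest for SOX9 (11.2 CPM), CD74 (8.09 CPM) and CELA3B (1.86 CPM) and the lowest for IFIH1 (57.0 CPM) and for the chromosome Z level (3.33). Replicate 4 at 33.3 µg/g was high in KCNQ1 (47.8 CPM), and replicate 5 at 33.3 µg/g in ATG13 (112 CPM), HHIPL2 (6.86 CPM) and ATF4 (211 CPM). ATF4 was low, at 163 CPM, in 3.33 µg/g replicate 5. Among solvent libraries, replicate 1 was high in CORIN (1.18 CPM), replicate 2 high in AHSG (694 CPM) and low in C1QA (3.65 CPM), and replicate 4 high in LPIN1 (4.38 CPM).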

How the results depend on the processing

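The count of genes passing between the doses was 0 in the main test, 19 with DESeq2 and 2 at an adjusted p under 0.1, and 0 in each fit that left out 1 library. Genes passing in the mean of both doses against solvent numbered 285, and 703 with DESeq2, 522 at an adjusted p under 0.1 and 147 to 334 with 1 library left out (147 without solvent replicate 4, 151 without replicate 1, 184 without replicate 2); the cause was not tested. With a replicate block, 0 genes passed between the doses and 165 against solvent. Replicate numbers did not pair the libraries: deviations of same-numbered libraries of the doses correlated at −0.253 to 0.12. With 1 library left out, the median dose difference ran from −0.08 to 0.04 among rising genes, 0.01 to 0.10 among falling genes, −0.82 to −0.36 among macrophage markers and 0.13 to 0.20 among cholesterol genes. The mean response score was 0.74 at 3.33 µg/g and 0.68 at 33.3 µg/g with 2 CPM added in place of 0.5. Of the 42 genes that rose by 3 or more on the log2 scale, 2 had an interval within a 2-fold dose difference, so these data could mostly not show one there.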
